A study of Mus musculus with 24 samples.

Results

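The genes described here are 10 members of the interleukin-1 (IL-1) family and its regulators, Il1b, Il1a, Il1rn, Il1r1, Il1r2, Il1rap, Il18, Il18bp, Nlrp3 and Pycard, of 21154 genes that could be named on the array. They were taken as a list and matched to the array through the RefSeq accession of each probe, and all 10 were found. The list was drawn up around Il1b, which had been chosen for its large rise at both single radiation doses. For that reason the differences between a single dose and control are described without a test for every member, and Il1b is not tested in any comparison of the adaptive regimen with another treatment. Il1rap and Nlrp3 had 2 probes each and the others 1, and values are those of the brighter probe unless the second is named.

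RNA was measured in thymocytes of female and male C57BL/6J mice aged 4 to 5 weeks on 24 Agilent 2-colour arrays, 3 for each sex and treatment. Control mice were not irradiated, low dose mice received 0.075 Gy of X-rays and high dose mice received 1.75 Gy of γ-rays. Mice of the adaptive regimen (RAR, radio-adaptive response) received the low dose and, 6 h later, the high dose. The time from the last exposure to the removal of the thymus is not given in the sources used here, and the thymus was dispersed and strained without sorting, so the RNA is that of all cells passing the strainer. The 11 thymocyte markers, Cd3e, Cd4, Cd8a and Rag1 among them, were well above background on all 24 arrays.

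Each value below is a log2 ratio of thymocyte RNA (Cy5) over a common mouse reference RNA (Cy3), so 0 means the same signal as the reference and 1 unit is a doubling. Ratios can be compared between arrays for a gene, not between genes. Between 34.7% and 71.8% of spots per array were well above background in the thymocyte channel, and both ends of that range were female RAR arrays, replicates 3 and 2. The arrays sat on 3 slides of 8, with all female control arrays on slide 3, all female high dose arrays on slide 1 and the female RAR arrays on slides 1 and 2, so that no slide held female RAR and female control arrays together. A difference was counted as past the threshold at a limma adjusted p below 0.05, with Benjamini-Hochberg adjustment over all 55681 probes, and a size of at least 1.5-fold. With 3 arrays a group, groups without overlap are common. RAR and control arrays did not overlap for 37% of all probes in females and 42.6% in males. For RAR and high dose this share was 28.2% and 30.7%, and for RAR and low dose 24% and 28.5%. It was 30.1% and 34.6% for high dose and control, and 30.3% and 26.3% for low dose and control.

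IL-1β and IL-18 are made as inactive precursors, which caspase-1 cleaves after it is recruited to an inflammasome. In that complex a sensor such as NLRP3 assembles with the adaptor ASC, the product of Pycard. IL-1α and IL-1β signal through IL-1 receptor type 1, encoded by Il1r1, together with the accessory protein encoded by Il1rap. The pathway is held in check by the receptor antagonist of Il1rn, by the decoy receptor of Il1r2 and, for IL-18, by the binding protein of Il18bp. Myeloid cells are a well known source of IL-1β and of the antagonist in lymphoid tissue.

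The 250 bases before the RefSeq transcription start (build GRCm38.p6) are shown for the 3 members the results turn on, the agonist Il1b, its antagonist Il1rn and the second cytokine Il18. Il1b lies on the minus strand and its stretch is chr2:129371140-129371389. That of Il1rn, at the first of 3 listed starts, is chr2:24336610-24336859 on the plus strand, and that of Il18 is chr9:50554450-50554699 on the plus strand. Letters in capitals are motif matches, and all runs read 5′ to 3′ towards the start.
Il1b: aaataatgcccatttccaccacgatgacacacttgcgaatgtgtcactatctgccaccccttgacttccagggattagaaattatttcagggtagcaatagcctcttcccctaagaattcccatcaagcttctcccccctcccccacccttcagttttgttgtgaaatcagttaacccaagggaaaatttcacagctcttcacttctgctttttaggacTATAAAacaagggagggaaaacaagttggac
Il1rn: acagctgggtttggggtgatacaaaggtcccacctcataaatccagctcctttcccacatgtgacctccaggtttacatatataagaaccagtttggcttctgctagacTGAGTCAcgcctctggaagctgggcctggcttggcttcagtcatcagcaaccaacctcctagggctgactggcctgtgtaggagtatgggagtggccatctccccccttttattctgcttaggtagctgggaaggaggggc
Il18: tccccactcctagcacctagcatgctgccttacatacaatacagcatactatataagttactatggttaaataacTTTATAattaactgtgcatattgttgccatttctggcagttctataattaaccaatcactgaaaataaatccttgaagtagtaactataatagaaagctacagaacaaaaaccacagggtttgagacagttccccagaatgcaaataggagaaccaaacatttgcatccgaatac

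All 10 members had an entry among the 32851 upstream stretches of this length. Motifs were searched on both strands as TATAAA for the TATA box, TGANTCA for AP-1, TTGCNNAA for C/EBP, GAGGAAG for PU.1, TTTC and TTTC 2 bases apart for the interferon-stimulated response element, and the NF-κB consensus. The capitals in Il1b are a TATA match that begins 31 bases before the start, where core promoters carry this box. The match in Il18 is the same motif on the opposite strand, 175 to 170 bases before the start, and that in Il1rn is an AP-1 match 141 to 135 bases before the start. Of all stretches 12.4% held the TATA motif, 6.75% AP-1, 9.56% C/EBP, 10.6% PU.1, 2.98% the interferon-stimulated element and 7.25% NF-κB. Il1a also held a TATA match, beginning 32 bases before its start, together with AP-1 and PU.1 matches.

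Il1b, the gene of the main inflammatory agonist, was low in control thymocytes and high after every radiation regimen. Female control arrays read 0.44, 0.82 and 0.66, and male control arrays 0.29, 0.19 and 0.14. Low dose arrays read 5.33, 5.10 and 5.78 in females and 5.98, 5.30 and 6.02 in males. Every irradiated array lay more than 3 units above every control array, and the female control arrays all lay above the male ones, a difference that was not tested.

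High dose arrays of Il1b read 5.81, 5.61 and 5.75 in females and 5.72, 5.98 and 6.26 in males. RAR arrays read 4.97, 5.47 and 6.23 in females and 6.11, 5.33 and 4.63 in males. Ordered by mean, the groups ran from male high dose (5.99) through male low dose (5.77), female high dose (5.72), female RAR (5.56), female low dose (5.41) and male RAR (5.36) to female control (0.64) and male control (0.21). The arrays of the 6 irradiated groups overlapped for all neighbours in that order.

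The Il1b ratio was 4.77 ± 0.33 (log2 difference ± SE, n = 3 against 3) above control after the low dose in females and 5.56 ± 0.33 in males. After the high dose it was 5.09 ± 0.33 and 5.78 ± 0.33 above control, which is 33.9-fold and 54.9-fold, and under the adaptive regimen 4.92 ± 0.33 and 5.15 ± 0.33. These comparisons share the control arrays. With normexp and loess the high dose differences were 4.13 in females and 4.56 in males, and with the slide as a block 6.32 in both. High minus low dose was 0.32 ± 0.33 in females and 0.22 ± 0.33 in males, given as a description, since both doses were used to choose Il1b. RAR minus high dose was -0.17 in females and -0.63 in males, with overlapping arrays in both sexes.

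In unsorted tissue a higher ratio can come from more RNA per cell or from more cells of a type, which cannot be told apart. The 11 neutrophil markers measured had a mean log2 ratio between 2.75 and 3.53 on the control arrays, 3.48 to 4.16 on the low dose arrays, 3.44 to 3.93 on the high dose arrays and 3.34 to 3.97 on the RAR arrays. Against control, 4 of the 11 were higher past the threshold after the low dose in each sex, where 4.76% of all probes were in females and 3.21% in males, and 3 in females and 4 in males after the high dose, where 4.23% and 5.2% of all probes were. Under the adaptive regimen 4 were higher and none lower in females (median difference -0.43), and 5 were higher and 2 lower in males (median 0.55). Of all probes 9.64% were higher and 10.8% lower in females under this regimen, and 11.2% and 13.4% in males. None of the 11 was without a signal above background in any treatment. Their part in the rise of Il1b was not tested. Il1a, which encodes the second agonist, IL-1α, was well above background on 2 of 24 arrays, both RAR arrays, and its ratios, -0.74 to 2.08, carry no usable level.

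**Figure D1:**
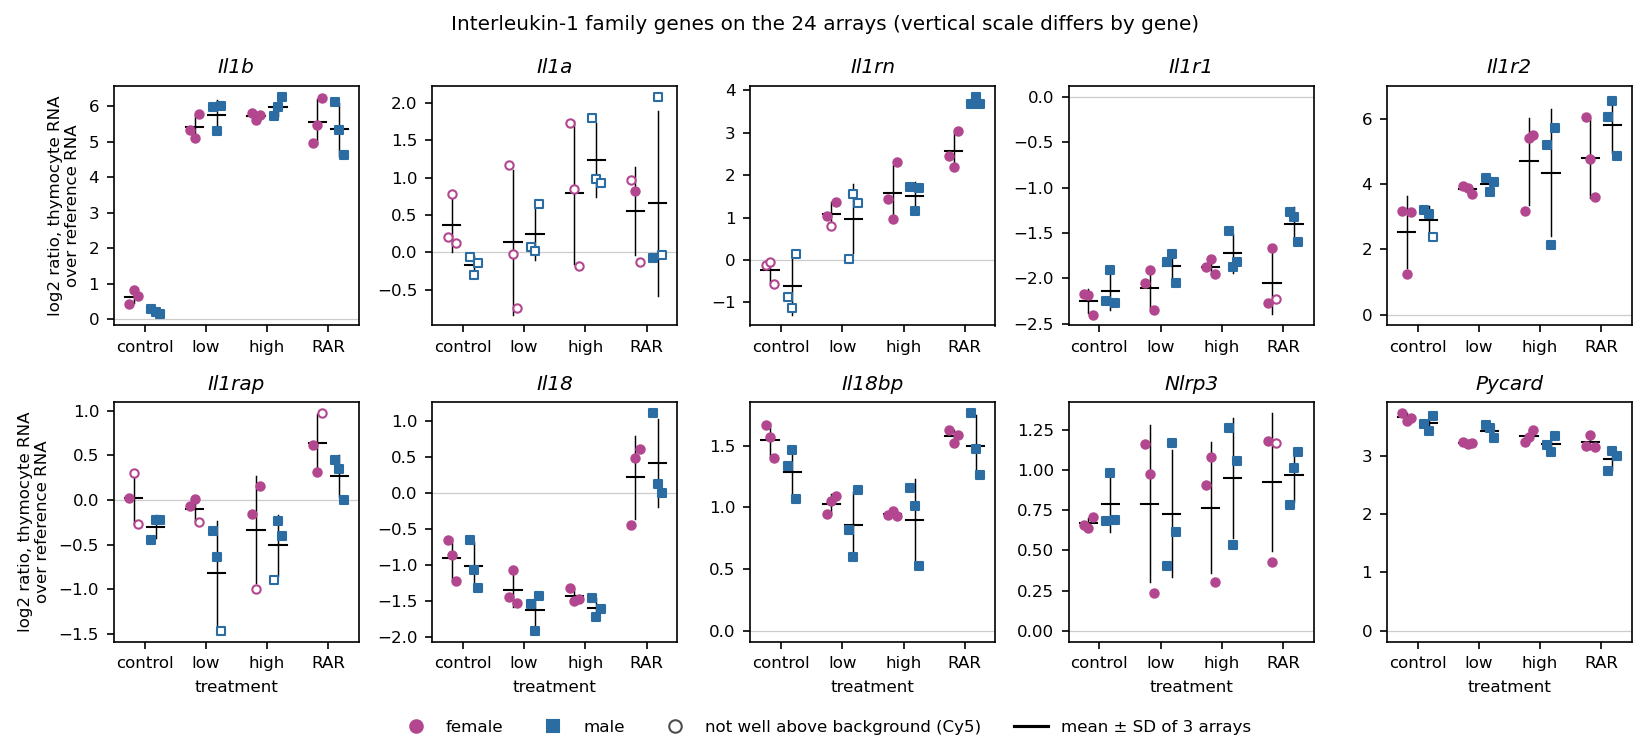
Log2 ratio of thymocyte over reference RNA (vertical axis, scaled for each gene) of the 10 genes on all 24 arrays by treatment (horizontal axis). Points are arrays, open where the thymocyte channel was not well above background, and bars are mean ± SD of 3 arrays. Il1b separates control from every irradiated group, and the Il1rn mean is lowest in control and highest under RAR. Il18 is high on RAR arrays with a lower mean than control in the other irradiated groups.

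Il1rn, the receptor antagonist gene, rose most under the adaptive regimen. Female control arrays read -0.12, -0.05 and -0.55 and male control arrays -0.87, -1.12 and 0.13, none of them well above background. The reference signal of Il1rn was well above background on 6 of 24 arrays. RAR arrays read 2.46, 2.20 and 3.05 in females and 3.67, 3.85 and 3.69 in males. All RAR arrays lay above all control arrays, and every male RAR array lay above every female one.

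After single doses the Il1rn means lay between those of control and RAR. Low dose arrays read 1.05, 0.81 and 1.37 in females and 0.04, 1.55 and 1.34 in males, and none of the male ones was well above background. High dose arrays read 1.45, 0.96 and 2.30 in females and 1.72, 1.15 and 1.69 in males. The lowest male low dose array lay below the highest male control array. The highest female high dose array overlapped the female RAR arrays, and no male high dose array reached a male RAR array.

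RAR minus control for Il1rn was 2.81 ± 0.40 in females (adjusted p = 2.67e-05) and 4.36 ± 0.40 in males (adjusted p = 1.58e-07). The ratios put this at 7.004-fold and 20.5-fold, but as the control signal was not well above background the size is not settled. The mean normalized thymocyte signal of RAR arrays, set against the lowest signal called well above background on each control array, was 14.8-fold and 22.3-fold higher, which exceeds the ratios, so no lower bound is given. These channel values are open to dye bias, as no dyes were swapped. Without female RAR replicate 2 the female difference was 2.99, and without replicate 3 it was 2.57. With normexp background correction and loess in place of the scanner's processing, the differences were 1.29 in females and 1.66 in males. The single-dose differences from control, 1.32 to 2.14 in the fit reported here, were 0.28 to 0.39 with normexp and loess. With the Cy5 channel alone they were 2.53 after the low and 2.73 after the high dose in females. With the value farthest from its group mean left out, the low dose differences were 1.02 in females and 2.44 in males.

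Against the high dose alone, Il1rn was 2.22 ± 0.40 higher in RAR males (adjusted p = 0.00155) and 0.99 ± 0.40 in RAR females, which missed the threshold (adjusted p = 0.118). Within slides the male difference was 2.05 on slide 1 and 2.25 on slide 2, and the female one was 0.75 on slide 1. Against the low dose, RAR males were 2.76 ± 0.40 higher (adjusted p = 0.000109). RAR females were 1.49 ± 0.40 higher than low dose females (adjusted p = 0.031), a call that was lost without female RAR replicate 1 or 3 or without any of the 3 female low dose arrays (1.25 to 1.64), with the slide as a block (1.56, adjusted p = 0.108) and with quantile scaling (1.48, adjusted p = 0.0605). The exact permutation test of 3 arrays against 3 cannot go below 0.1, and it gave 0.1 for each of these Il1rn comparisons but RAR against high dose in females (0.2).

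Markers of macrophages and monocytes were highest on the RAR arrays, as were Il18 and the Il1rn means. The mean log2 ratio of the 12 markers, which include Cd68, Csf1r, Adgre1 and C1qa, was 0.18 to 0.86 on the control arrays, 0.71 to 0.99 on the low dose, 0.87 to 1.26 on the high dose and 1.71 to 2.58 on the RAR arrays. Against control, 7 of 12 were higher past the threshold in RAR females and 9 of 12 in RAR males, against the high dose 9 and 7, against the low dose 7 and 9, and none was lower. Of all probes 9.64% and 11.2% were higher against control, 4% and 3.1% against the high dose and 2.28% and 4.98% against the low dose. After single doses, where the Il18 mean was below control, 3 markers were higher and 1 lower than control after the low dose in females, 3 higher and 0 lower in males, 2 higher and 1 lower after the high dose in females, and 6 higher and 0 lower in males. Of all probes, 3.21% to 5.2% were higher and 3.44% to 5.38% lower in these single-dose comparisons. All 12 macrophage and monocyte markers were above background on at least 1 array of every treatment. Of 8 dendritic cell markers, 3 were higher and 1 lower than control in RAR females, and 4 higher and 0 lower in RAR males. Their mean was 2.41 to 2.48 on female RAR, 2.96 to 3.11 on male RAR and 2.03 to 2.64 on control arrays. Of 6 B cell markers, 4 were lower under RAR in each sex, as were 10.8% and 13.4% of all probes. The part of these cell types in the Il1rn and Il18 results was not tested.

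**Figure D2:**
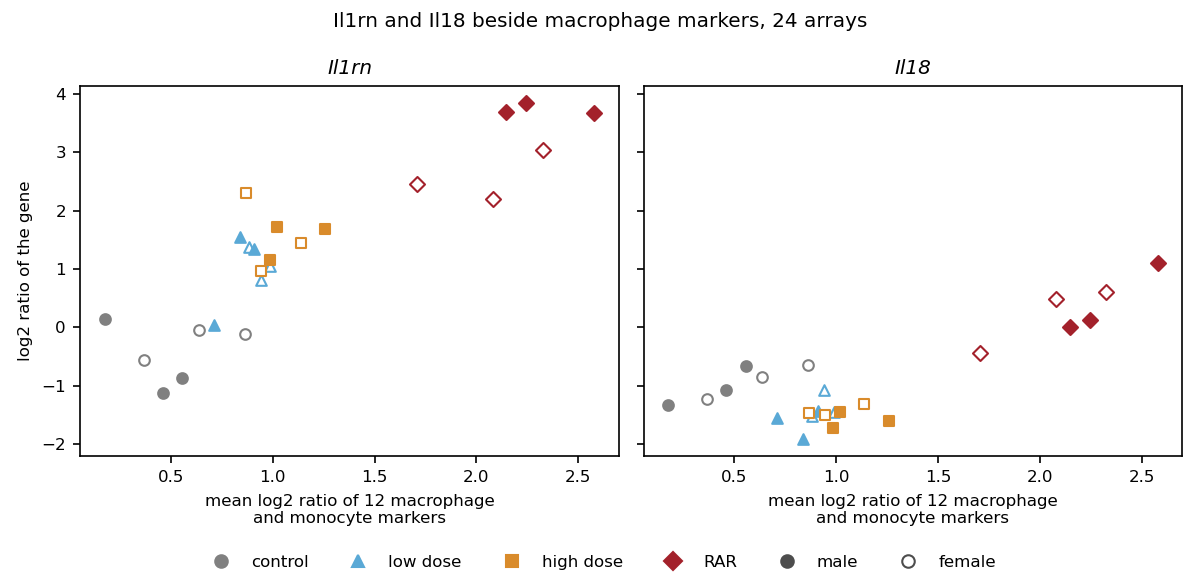
Log2 ratio of Il1rn and of Il18 (vertical axes) against the mean log2 ratio of 12 macrophage and monocyte markers (horizontal axes) on the 24 arrays, open for females and filled for males. The 6 RAR arrays lie at 1.71 to 2.58 on the marker axis, apart from the other 18, and are the highest for Il18, while Il1rn is also above control on most single-dose arrays.

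Il18, the gene of the second caspase-1 substrate of the list, was higher than control under the adaptive regimen, while its mean was lower than control after either single dose. It was well above background on all 24 arrays. Control arrays read -0.65, -0.86 and -1.22 in females and -0.66, -1.07 and -1.32 in males. RAR arrays read -0.44, 0.48 and 0.61 in females and 1.11, 0.12 and -5.2e-05 in males. Every RAR array of a sex lay above all its control arrays, as for 15.2% of all probes in females and 18.7% in males.

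After single doses Il18 lay in the lower part of the control range or below it. High dose arrays read -1.32, -1.50 and -1.47 in females and -1.45, -1.72 and -1.61 in males. Low dose arrays read -1.45, -1.07 and -1.52 in females and -1.55, -1.91 and -1.44 in males. High dose minus control was -0.52 ± 0.29 and -0.58 ± 0.29 in females and males, and low dose minus control -0.44 ± 0.29 and -0.62 ± 0.29. Arrays of single dose and control did not overlap except for the low dose in females.

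RAR minus control for Il18 was 1.13 ± 0.29 in females (adjusted p = 0.00567) and 1.43 ± 0.29 in males (adjusted p = 0.000693). RAR minus high dose was 1.65 ± 0.29 (adjusted p = 0.00164) and 2.00 ± 0.29 (adjusted p = 0.00023), which is 3.13-fold and 4.01-fold. RAR minus low dose was 1.56 ± 0.29 (adjusted p = 0.00318) and 2.04 ± 0.29 (adjusted p = 8.93e-05). Within slides, RAR minus high dose was 1.45 in females on slide 1, and 1.51 and 2.77 in males on slides 1 and 2. The female RAR minus control difference was 0.99 without RAR replicate 2 and 0.93 without replicate 3. The exact permutation p was 0.1 for each of the 6 comparisons.

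Il18bp, the gene of the IL-18 binding protein, had lower means after single doses than in control or under the adaptive regimen. Female arrays read 1.67, 1.57 and 1.40 in control, 0.95, 1.05 and 1.10 after the low dose, 0.93, 0.97 and 0.93 after the high dose and 1.63, 1.52 and 1.59 under RAR. Male arrays read 1.33, 1.47 and 1.07 in control, 0.82, 0.60 and 1.14 after the low dose, 1.16, 1.02 and 0.52 after the high dose and 1.77, 1.47 and 1.27 under RAR. The female single-dose arrays lay below all female control and RAR arrays, while in males single-dose and control arrays overlapped.

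RAR minus high dose for Il18bp was 0.63 ± 0.17 in females (adjusted p = 0.0194) and 0.60 ± 0.17 in males (adjusted p = 0.0271). RAR minus low dose was 0.55 ± 0.17 in females (adjusted p = 0.0559) and 0.65 ± 0.17 in males (adjusted p = 0.011), and RAR minus control was 0.03 and 0.21 (adjusted p = 0.933 and 0.386). The high dose calls were lost without female RAR replicate 3 (0.63, adjusted p = 0.0539) or female high dose replicate 1 or 3, and without male RAR replicate 1 or 2 or male high dose replicate 2 or 3 (0.41 to 0.66). The male low dose call was lost without male RAR replicate 1 or male low dose replicate 2 (0.52 in both cases) and with the slide as a block (0.74, adjusted p = 0.0536). Quantile scaling between arrays gave 0.50 and 0.47 for the male differences, and normexp with loess gave 0.47 to 0.50 for the 3 calls, all below 1.5-fold.

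Il1r2, the decoy receptor gene, varied more between arrays of a group than the other receptor genes. Its reference signal was well above background on 2 of 24 arrays, so the ratio rests on a dim reference. Female arrays read 3.16, 1.25 and 3.15 in control, 3.17, 5.40 and 5.51 after the high dose and 6.06, 4.75 and 3.61 under RAR. Male arrays read 3.22, 3.07 and 2.38 in control, 5.21, 2.13 and 5.71 after the high dose and 6.05, 6.53 and 4.87 under RAR. RAR and control arrays did not overlap in either sex, as for 37% of all probes in females and 42.6% in males. High dose arrays overlapped RAR arrays in both sexes and control arrays in males. The low dose arrays were tight, at 3.68 to 3.95 in females and 3.76 to 4.18 in males.

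RAR minus control for Il1r2 was 2.92 ± 0.84 in males (adjusted p = 0.0109), and 2.24 with the slide as a block, where the call was lost (adjusted p = 0.176). In females it was 2.29 ± 0.84 (adjusted p = 0.0494), just past the threshold, and the call was lost in 19 of the 24 fits that each left out 1 array, among them those without each control array, RAR replicate 1 or 2 and each low dose array. Without female RAR replicate 1 the difference was 1.66 and without female control replicate 2 it was 1.65. Blocking on the slide gave 1.56 (adjusted p = 0.504), and the call was also lost with the mean over a gene's probes (adjusted p = 0.052). RAR did not pass against either single dose, with intervals of -1.65 to 1.88 against the high dose in females and -0.30 to 3.23 in males.

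Il1r1, the signalling receptor gene, was below the reference on every array. Male arrays read -2.25, -1.91 and -2.27 in control and -1.26, -1.33 and -1.60 under RAR, with no overlap. Female arrays read -2.17, -2.18 and -2.40 in control and -2.27, -1.67 and -2.23 under RAR, with overlap. RAR minus control was 0.75 ± 0.17 in males (adjusted p = 0.00195; 0.56 and adjusted p = 0.0836 with the slide as a block) and 0.20 ± 0.17 in females (adjusted p = 0.465). Within slide 2, with 1 male array of each, the difference was 0.99.

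Il1rap, the accessory protein gene, was dim, with its brighter probe well above background on 17 of 24 arrays and its second probe on 1. RAR arrays read 0.62, 0.32 and 0.97 in females and 0.45, 0.35 and 0.00 in males, above the high dose arrays of the same sex (-0.15, -1.001 and 0.15, and -0.89, -0.23 and -0.40). RAR minus high dose was 0.97 ± 0.29 in females (adjusted p = 0.0395) and 0.78 ± 0.29 in males (adjusted p = 0.108), and RAR minus low dose was 0.74 ± 0.29 (adjusted p = 0.151) and 1.08 ± 0.29 (adjusted p = 0.0156). The female call was lost without female RAR replicate 1 or 3 or female high dose replicate 1 or 2, where the value was 0.64 to 1.06, under the slide block and with quantile scaling (1.04, adjusted p = 0.0502). The male call was lost without male low dose replicate 3 (0.76) or male RAR replicate 1 (0.99) and with quantile scaling (1.05, adjusted p = 0.0516). With normexp and loess the differences were 0.19 and 0.26, and with the mean over both probes 0.72 and 0.83, and neither call was kept.

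Of the inflammasome members, Nlrp3, the sensor gene, did not pass in any comparison. Its ratio lay between 0.24 and 1.26 on all 24 arrays, and RAR minus control was 0.26 (95% interval -0.32 to 0.83) in females and 0.18 (-0.39 to 0.76) in males. Its second probe, well above background on 11 arrays, ran from -1.58 to 1.69. For that probe RAR minus control was -0.79 (-1.67 to 0.08) in females, and the male means were 0.03 in control and 0.49 under RAR. Pycard, the ASC adaptor gene, was well above background on all arrays and had lower means than control after each regimen in both sexes. Male arrays read 3.55, 3.43 and 3.68 in control and 2.73, 3.09 and 3.00 under RAR, and female arrays 3.73, 3.60 and 3.65 in control and 3.17, 3.36 and 3.15 under RAR, without overlap in either sex. RAR minus control was -0.61 ± 0.11 in males (adjusted p = 0.000221), a change of 1.53-fold that was under 1.5-fold without male RAR replicate 1 (-0.51) or male control replicate 3 (-0.55), and -0.43 ± 0.11 in females (adjusted p = 0.00533), below the fold required. High dose minus control was -0.33 ± 0.11 in females and -0.36 ± 0.11 in males, without overlap, and low dose minus control was -0.45 ± 0.11 in females, without overlap, and -0.12 ± 0.11 in males, with overlap. In females RAR minus low dose was 0.01 ± 0.11.

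Counted over the 9 members other than Il1b, RAR minus control passed for 3 in females, all higher (Il1rn, Il1r2 and Il18), where 20.5% of all probes passed, 9.64% as higher and 10.8% as lower. In males 5 passed, 4 of them higher (the same 3 and Il1r1) and Pycard lower, where 24.6% of all probes passed, 11.2% as higher and 13.4% as lower. RAR minus high dose passed for 3 in females (Il1rap, Il18 and Il18bp) and 3 in males (Il1rn, Il18 and Il18bp), all higher, where 7.3% and 5.89% of all probes passed, 4% and 3.1% as higher. RAR minus low dose passed for 2 in females (Il1rn and Il18) and 4 in males (Il1rn, Il1rap, Il18 and Il18bp), all higher, where 4.14% and 9.78% of all probes passed, 2.28% and 4.98% as higher. The median log2 difference of the 9 was 0.26 and 0.75 against control in females and males, 0.16 and 0.60 against the high dose and 0.55 and 0.65 against the low dose, where the median over all probes was between -0.04 and -0.02.

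**Figure D3:**
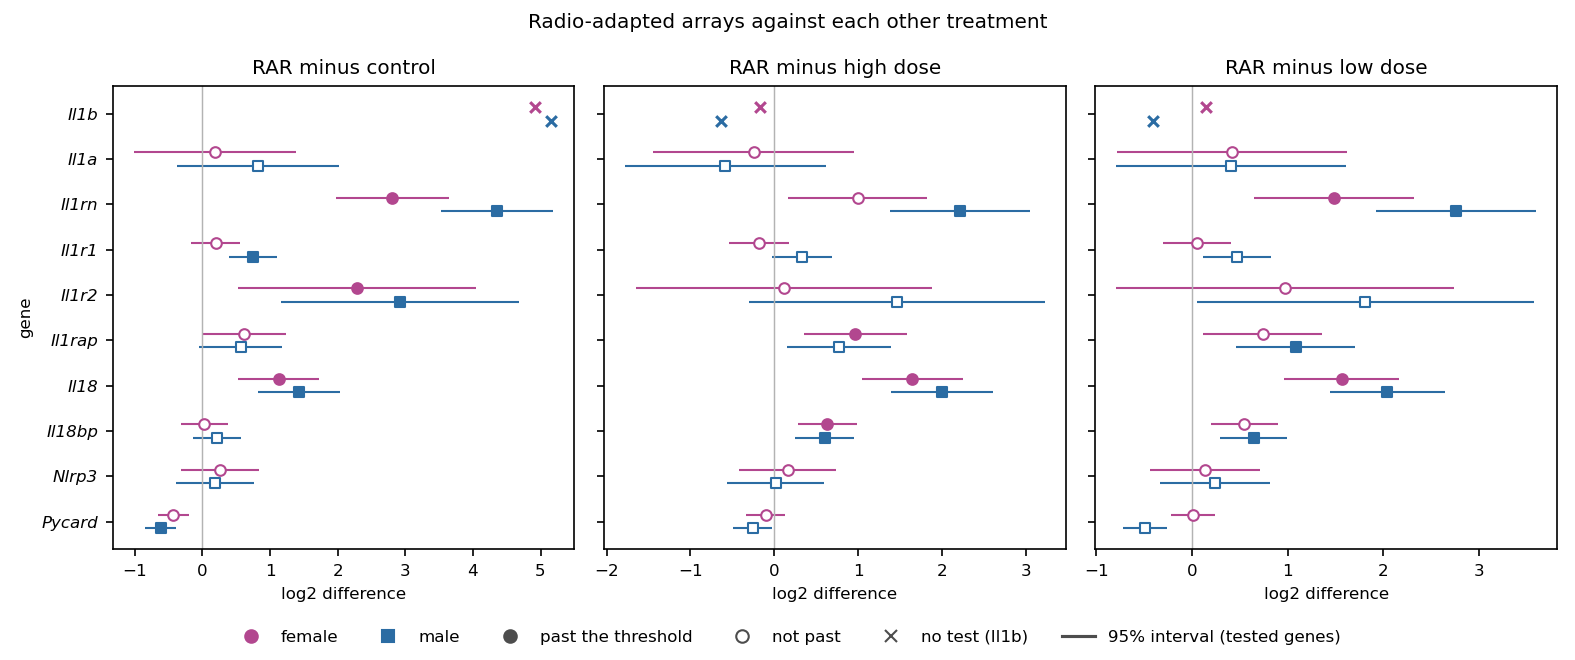
Log2 difference between RAR and each other treatment (horizontal axes) for the 10 genes (vertical axis) in females and males. Bars are 95% intervals of the limma fit for tested genes, filled points passed the threshold and crosses mark Il1b, which has no test. Il18 is filled in all 3 panels for both sexes. Il1b lies far above 0 against control. Against the single doses it lies slightly to either side of 0 in females and below 0 in males.

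No member passed the threshold between the high and the low dose. High minus low dose passed for 0 of 10 members in females (limma), where 0% of all probes passed, and 0 had an unadjusted p below 0.05, as 4.74% of all probes did. In males it passed for 0 of 10, where 0.0018% of all probes passed, and 1, Pycard, had an unadjusted p below 0.05, as 7.35% of all probes did. Il1b is among the 10 but was chosen on both doses, so its count carries no weight. The interval of high minus low dose for Il18 ran from -0.69 to 0.52 in females and from -0.56 to 0.64 in males, and for Il1rn -0.34 to 1.33 and -0.29 to 1.38.

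Sex was then compared within the adaptive regimen, contrast 1 of the study. None of the 10 members passed for male minus female RAR, where 0.438% of all probes passed, and 3 had an unadjusted p below 0.05, as 11.8% of all probes did. Il1rn was 1.17 ± 0.40 higher in RAR males (adjusted p = 0.25), Il1r1 0.66 ± 0.17 higher (adjusted p = 0.122) and Pycard -0.29 ± 0.11 (adjusted p = 0.31), each with no overlap between 3 arrays and 3 and an exact permutation p of 0.1. Arrays of the sexes did not overlap for 14.5% of all probes. Il1b differed by -0.20 (95% interval -0.89 to 0.49) and Il18 by 0.19 (-0.41 to 0.80). The study's further contrasts set this sex difference against that in control, high dose and low dose, and genes passing every contrast were its endpoints. By limma 0 of 10 members passed in each, where 0%, 0.00359% and 0% of all probes passed. In each, 2 had an unadjusted p below 0.05, as 7.64%, 4.76% and 7.09% of all probes did. The checks on processing below do not cover these further contrasts. The interaction of sex and treatment passed for 0 members (0.00359% of all probes) by the limma F-test, and 1, Pycard, had an unadjusted p below 0.05, as 6.49% of all probes did.

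The rest of the pathway was read from lists of its known genes. Among 10 other inflammasome genes, 4 were higher in RAR females than in control and 5 in RAR males, with none lower, where 9.64% and 11.2% of all probes were higher. Casp4, the sensor of intracellular lipopolysaccharide, led with 3.07 ± 0.20 in females (adjusted p = 4.05e-09) and 3.49 ± 0.20 in males (adjusted p = 5.62e-10), followed by Mefv, the pyrin sensor gene, at 2.11 ± 0.40 and 3.10 ± 0.40. Casp1, the protease that matures IL-1β and IL-18, rose by 1.66 ± 0.19 (adjusted p = 3.16e-06) and 2.10 ± 0.19 (adjusted p = 1.58e-07), and Nlrp1a, a further sensor gene, by 1.04 ± 0.14 and 1.23 ± 0.14. Against the high dose, Casp1 was still 1.15 ± 0.19 and 1.27 ± 0.19 higher in RAR females and males and Casp4 1.30 ± 0.20 and 1.35 ± 0.20, and 3 and 2 of the 10 were higher, where 4% and 3.1% of all probes were. The median difference of the list from control was 0.58 in females and 0.51 in males, and -0.04 and -0.02 over all probes.

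Of 10 signalling genes below the receptor, 2 rose and 2 fell against control in RAR thymocytes of both sexes, where 20.5% of all probes passed in females and 24.6% in males, about evenly in both directions. Irak2, a kinase of the receptor complex, was 1.21 ± 0.15 higher in females and 1.55 ± 0.15 in males, and Myd88, the adaptor, 1.01 ± 0.11 and 1.20 ± 0.11. Traf6, the ubiquitin ligase that follows them, fell (-0.64 ± 0.15 and -1.09 ± 0.15), as did Tab1, a partner of the kinase TAK1 (-0.83 ± 0.11 and -0.90 ± 0.11). The list median was 0.06 in females and -0.10 in males.

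Of 14 genes known to be induced by IL-1, 10 were higher than control under RAR in each sex and none was lower (9.64% and 11.2% of all probes were higher), with medians of 1.27 in females and 1.22 in males. The monocyte attractant Ccl2 changed by 4.19 ± 0.23 in females and 4.89 ± 0.23 in males, and in males the prostaglandin synthase Ptgs2 by 3.29 ± 0.42, with 2 of 3 control arrays well above background. In males the neutrophil attractant Cxcl2 and the cytokine Il6 also passed, but neither was well above background on any control array, so no size is given for them. Single doses gave 8 or 9 higher of 14 against control, where 3.21% to 5.2% of all probes were higher. Against the high dose, Ccl2 (2.35 ± 0.23 in females and 2.81 ± 0.23 in males) was 1 of 3 that passed in females and the only 1 in males. Of all probes 4% and 3.1% were higher there. These genes respond to other stimuli as well, and the list is no measure of IL-1 signalling by itself.

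Among 6 other ligand genes of the family, 2 were higher than control under RAR in each sex, Il36g and Il33. Of all probes 9.64% were higher in females and 11.2% in males. Il36g, the gene of interleukin-36γ, which the array names Il1f9, had a signal well above background on every RAR array but on no control array, so no size is given against control. In RAR males it was 3.27 ± 0.71 above the high dose (adjusted p = 0.00653), where 1 of 3 high dose arrays was well above background. Il33, the alarmin gene, was 2.09 ± 0.30 above control in RAR males, where 2 of 3 control arrays were well above background, while no female control array was. Il33 was the only ligand of the 6 above background on any control array. Of 5 other receptor genes, Il1rl1, the receptor of IL-33, was higher than control by 1.14 ± 0.21 in RAR females and 1.12 ± 0.21 in RAR males. It was the only 1 of the 5 past the threshold, where 9.64% and 11.2% of all probes were higher.

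**Figure D4:**
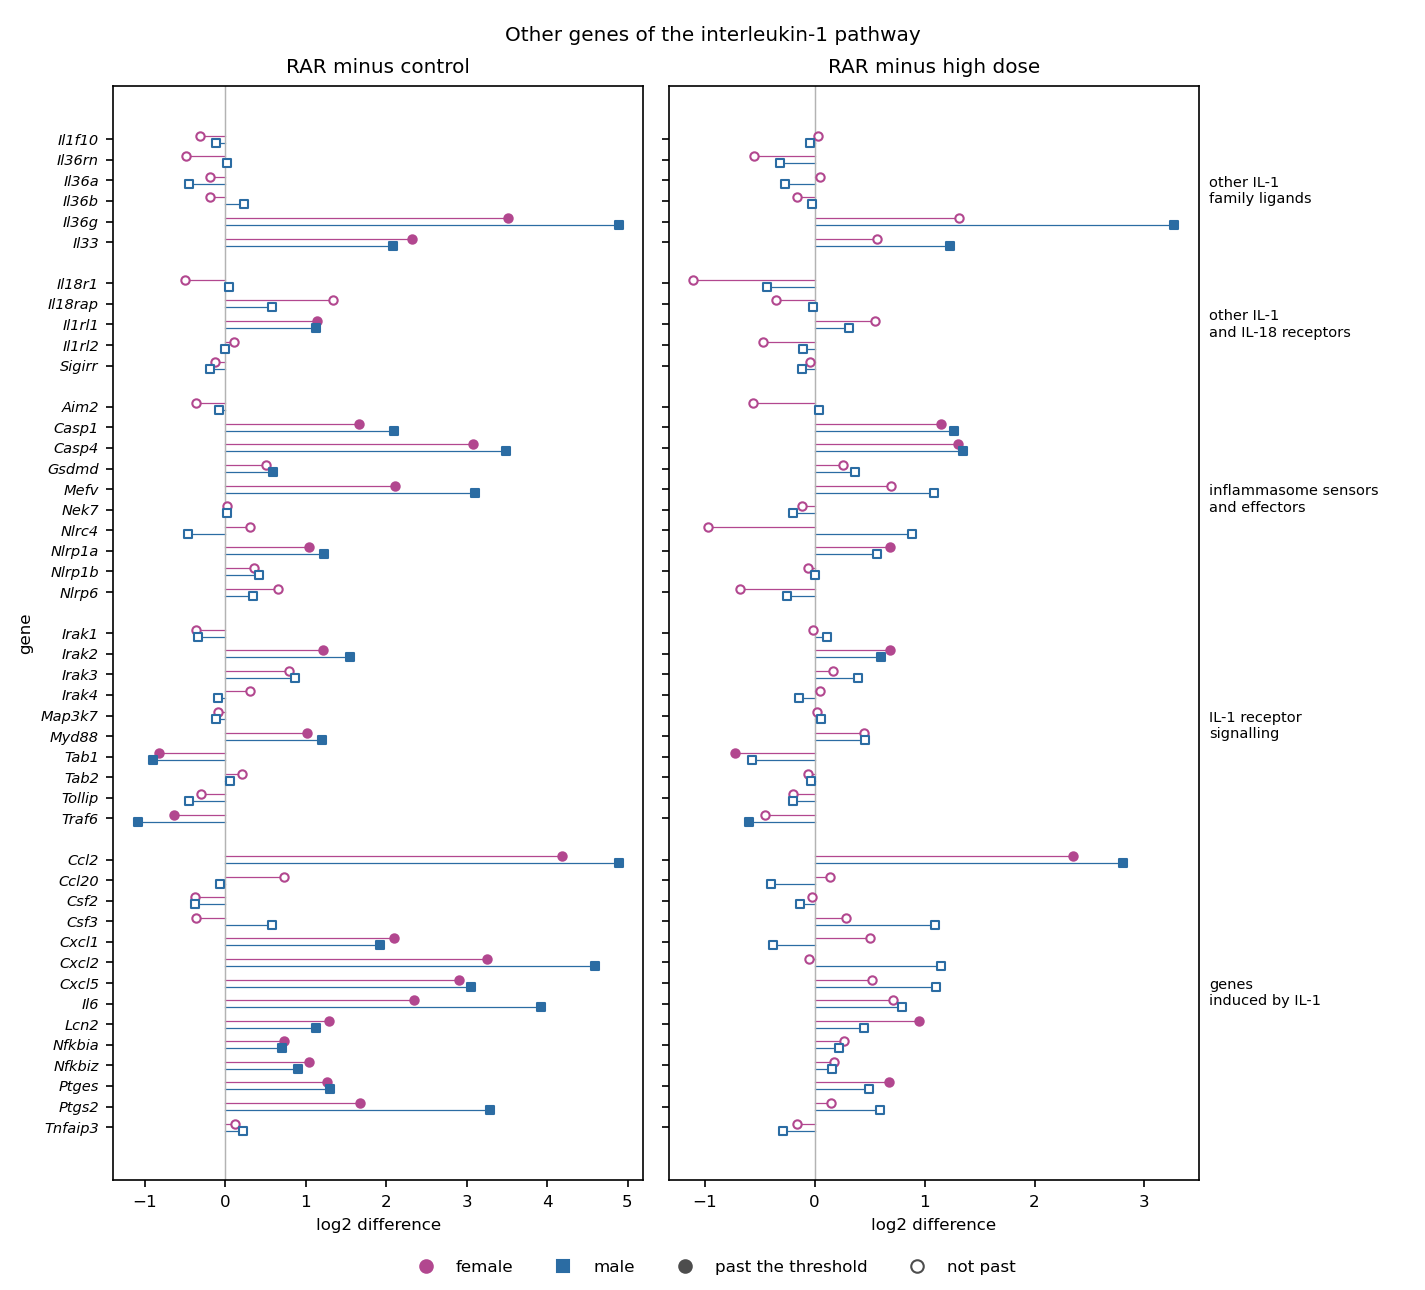
Log2 difference of RAR from control (left) and from the high dose (right) for 45 other genes of the pathway (vertical axis, grouped by list) in females and males, filled where past the threshold. Casp1, Casp4, Irak2 and Ccl2 are filled in both panels for both sexes, while most chemokine genes are filled against control alone. Ccl20, Csf3, Cxcl2, Cxcl5, Il6, Il1f10, Il36a, Il36b, Il36g, Il36rn, Il18rap and Nlrp6 were not well above background on any control array. Their lengths on the left have no settled size. Ccl20, Il1f10, Il36a, Il36b and Il36rn were also not so on any high dose or RAR array.

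The 5 genes whose pattern was most like that of Il1b over 24 arrays, among 14528 ranked, were Bbc3 (r = 0.984), Dglucy (0.983), Ccng1 (0.982), Olfr1229 (0.979) and Cox6b2 (0.976). Bbc3 and Ccng1 are known TRP53 targets. All arrays share the reference, and the gap between control and irradiated arrays carries these values, since over the 18 irradiated arrays r was 0.318, 0.139, 0.121, 0.417 and 0.537.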

How the data were processed

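RNA of thymocytes (Cy5) and of a pooled mouse reference (Cy3) was hybridised together to 24 Agilent 8x60K arrays, without dye swaps. The scanner files were deposited by the authors as Feature Extraction output (version 11.5.1.1 in the file headers), with processed signal intensity per spot, background-subtracted and dye-normalized. A table of log2 ratios was also deposited, and 100% of its values lay within 0.01 of those computed from the scanner files.

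Control spots and outlier spots (183 to 368 per array) were left out, spots of a probe were averaged, and log2(Cy5/Cy3) of 55681 probes was analysed. No spot was saturated. Of these probes 28026 were named through their RefSeq accession (GRCm38.p6 names). Groups came from the labels, 3 independent samples each. All 24 arrays were fitted as 8 group means with limma 3.58.1 in R 4.3.3 (16 residual degrees of freedom). No covariate was used, as in the study's limma contrasts, and the code was tested on simulated data. The paper states that, before its tests, a value further from the average of its condition was discarded as an outlier. The fit reported here did not take that step, and leaving out the farthest value was run as an alternative only. Ratios are relative to total signal, and the number of arrays limits the precision. The members, the gene lists and the tests were chosen with earlier results of these data known. Named pathway genes are at most the 4 largest changes of a list and comparison, past the threshold and well above background on the 3 arrays of the brighter group. Genes like Il1b are the 5 with the highest correlation. Alternatives were other background corrections and scalings, the deposited ratios, the Cy5 channel alone, dim probes left out, the slide or the replicate number as a block, the farthest value left out, the mean over a gene's probes, a stricter fold and each array left out in turn.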

Additional observations from a re-analysis of the deposited data

How the results depend on the processing

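The Il18 comparisons of the adaptive regimen with each other treatment, and those of Il1rn with control in both sexes and with either single dose in males, kept their direction and their side of the threshold under all alternatives run, except that the Il18 differences from control lay under a log2 difference of 1.5 in both sexes. No difference that passed, and no untested difference of at least 1.5-fold, changed sign. The 64 other differences, which include printed ones near 0 such as Il18bp against control and Il1b and Il18 between the sexes, turned sign in 106 of 2167 fits. The count of members past the threshold, out of 9, moved by over 1.5 times as follows, and by at most 2 calls elsewhere (2 to 4 for RAR minus high dose in males). Counts of all 55681 probes that passed in a setting are given in brackets. For RAR minus control in females, 3 in the values reported, it was 6 with the Cy5 channel alone (24041 probes). For RAR minus high dose in females (3) it was 5 with the Cy5 channel alone (11601 probes) and 1 at a log2 difference over 1.5. For RAR minus low dose in females (2) it was 1 with quantile scaling (2190 probes). It was also 1 with the slide as a block (1490 probes) and 1 at a log2 difference over 1.5. For RAR minus control in males (5) it was 3 with the slide as a block (10393 probes) and 2 at a log2 difference over 1.5. For RAR minus low dose in males (4) it was 2 at that size. Out of 10 members, male minus female RAR (0) gave 2 with quantile scaling (385 probes). It gave 1 with the Cy5 channel alone (1743 probes) and 1 with the replicate number as a block (254 probes). Leaving out the value farthest from its group mean, a step like the outlier removal the paper describes, narrows the spread by construction. It gave 2 for high minus low dose in females (7713 probes) and 3 in males (10017 probes). For male minus female RAR it gave 4 (10358 probes) and for the interaction 8 (33572 probes).

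With single arrays left out, the counts ranged from 2 to 3, 1 to 3 and 1 to 2 in females for RAR minus control, high dose and low dose, and from 4 to 5, 2 to 3 and 2 to 4 in males. They stayed at 0 for high minus low dose and the interaction, and ranged from 0 to 1 for male minus female RAR. Same-numbered arrays did not deviate together (correlations from -0.165 to 0.222, 80 of 84 under 0.1), so the numbers do not pair the samples. With the replicate block the female Il1r2 difference from control (adjusted p = 0.0609) and the female Il1rap difference from the high dose (adjusted p = 0.0578) lost their call.

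With the Cy5 channel alone the median over all probes moved to 0.64 for RAR minus control in females, so values there are relative to that shift, and 24041 probes passed (69.2% of them higher), against 11403 (47.1%) in the ratios. With normexp and loess 6739 passed (64.8% higher). The dimness of Il1rn, Il1r2, Il1rap and Il1a in 1 or both channels limits their fold changes, and 3 arrays a group limit all differences.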

Other observations

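The genes most like Il1rn and Il18 were ranked in the same way as for Il1b, after the values had been seen. For Il1rn they were Gpr137b (r = 0.943 over 24 arrays, 0.887 over the 18 irradiated arrays), Ccl2 (0.941 and 0.901), Emilin2 (0.939 and 0.906), Ccl3 (0.937 and 0.882) and Ralgds (0.937 and 0.914). For Il18 they were Cfb (0.971 and 0.981), Pnp (0.961 and 0.979), Snx10 (0.960 and 0.972), Ifit2 (0.943 and 0.982) and Cndp2 (0.943 and 0.968). Unlike the genes ranked for Il1b, these kept a high correlation within the irradiated arrays. All arrays share the reference RNA, and both sets of arrays include the RAR arrays.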
